A study of Mus musculus with 9 samples.

Results

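The genes described here are a set of transcription factor genes known for patterning the skull vault and the meninges beneath it: Zic1, Zic2, Zic4 and Zic5, Lmx1b, Foxc1, Foxc2 and En1. They were listed by name but chosen by measured values, since their FPKM levels in the same 3 groups were already known when the list was drawn up, so those levels are given as a description without p-values. Of the 8 listed genes, 7 had values and are described, among 43539 gene identifiers with usable values in all, and Foxc2 was not analysed here. All 7 passed the filter on low values, a mean of at least 0.5 FPKM (fragments mapped per kilobase of gene and per 1000000 reads) over the 9 libraries.

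RNA was sequenced from mouse embryos of a mixed strain background at E14.5 in 3 groups of 3 libraries. The MCAGF8 vault came from Msx2-Cre; CAGF8 embryos, in which Msx2-Cre recombines a Rosa26 allele in the surface ectoderm of the head so that a CAG promoter drives Fgf8b, an isoform of the secreted growth factor FGF8. The control vault and the control base came from embryos of the same cross that the labels call wildtype. By the study's account of its breeding, every embryo of such a cross receives the Fgf8b allele and Cre marks the mutants, so controls would carry that allele without recombination. Vault tissue was what lay under the peeled skin, and base tissue was the cartilaginous floor of the skull of control embryos. A library pooled the RNA of 3 out of 9 tissue samples in its group, which hides the variation among embryos, and control vault and control base were dissected from the same control embryos, although which pools share embryos is not stated. The study describes recombination in the ectoderm and not in the mesenchyme beneath it. Fgf8 itself measured 13.5, 8.25 and 3.01 FPKM in the control vault pools, 19.5, 9.43 and 13.0 FPKM in the MCAGF8 vault and 3.78, 17.4 and 5.82 FPKM in the control base, so the groups overlapped, and gene-level FPKM do not separate Fgf8b from the endogenous gene.

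Zic genes encode zinc finger proteins related to the GLI mediators of Hedgehog signaling. They are active in dorsal neural tissue, in meninges and in the mesenchyme of the skull vault, and ZIC1 variants are a known cause of coronal suture fusion. Lmx1b encodes a LIM homeodomain factor best known for dorsal identity in the limb and for midbrain development, and it is expressed in vault mesenchyme. Foxc1 encodes a forkhead factor that meningeal and vault precursors need, since mouse embryos without it lack most of the vault bones. En1 encodes a homeodomain repressor that patterns the midbrain and is expressed in vault mesenchyme, where it is needed for normal bone formation. FGF8 is also the signal of the isthmus, the boundary between midbrain and hindbrain, where En1, Lmx1b and FGF8 belong to 1 circuit.

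The genes lie in 5 places in the genome. Positions are from GENCODE on GRCm38, whereas the build behind the deposited values was not given. Zic1 (chromosome 9, 91358058 to 91365810, minus strand) and Zic4 (chromosome 9, 91362413 to 91389348, plus strand) are transcribed in opposite directions, and their gene models overlap by 3.4 kb. Reads in that stretch could be split between the 2 genes, because the libraries were stranded but the use of strand in quantification is not stated, so the ratio of Zic1 to Zic4 is uncertain. Zic5 (chromosome 14, 122456795 to 122465677, minus strand) and Zic2 (chromosome 14, 122475435 to 122479852, plus strand) also face away from each other, with starts 9.8 kb apart and no overlap. Lmx1b lies on chromosome 2 (33560965 to 33640511, minus strand), Foxc1 on chromosome 13 (31806633 to 31812476, plus strand) and En1 on chromosome 1 (120602418 to 120607992, plus strand).

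The promoters of 4 genes are shown because they represent the patterns that follow: the Zic1 and Zic4 pair, which overlap in the genome and were both higher in the MCAGF8 vault, and Lmx1b and En1, which were both near the bottom of the range in the control base but lay on opposite sides of the control vault in the MCAGF8 vault. RefSeq on GRCm38.p6 gave a window for 6 of the 7 genes. Each line holds the 250 bases before the transcription start, read 5′ to 3′ on the strand of the gene, from chr9:91365769-91366018 (minus strand) for Zic1, chr9:91368722-91368971 (plus strand) for Zic4, chr2:33641099-33641348 (minus strand) for Lmx1b and chr1:120602237-120602486 (plus strand) for En1. Capitals mark the matches found among the 7 motifs searched.
Zic1: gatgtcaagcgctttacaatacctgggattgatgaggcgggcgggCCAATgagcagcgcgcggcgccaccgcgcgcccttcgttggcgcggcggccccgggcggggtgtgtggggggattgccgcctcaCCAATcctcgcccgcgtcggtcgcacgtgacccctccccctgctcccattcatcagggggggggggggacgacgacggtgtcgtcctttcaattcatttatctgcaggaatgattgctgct
Zic4: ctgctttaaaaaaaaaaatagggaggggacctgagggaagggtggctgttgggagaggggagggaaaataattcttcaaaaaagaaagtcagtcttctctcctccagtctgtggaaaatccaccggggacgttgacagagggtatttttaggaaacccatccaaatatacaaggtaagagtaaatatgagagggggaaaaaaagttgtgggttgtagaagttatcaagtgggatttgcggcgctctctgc
Lmx1b: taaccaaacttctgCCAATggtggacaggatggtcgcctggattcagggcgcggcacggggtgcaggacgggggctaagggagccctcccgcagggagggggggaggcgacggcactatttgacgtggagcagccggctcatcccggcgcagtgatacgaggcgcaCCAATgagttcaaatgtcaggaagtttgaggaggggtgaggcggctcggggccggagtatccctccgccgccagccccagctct
En1: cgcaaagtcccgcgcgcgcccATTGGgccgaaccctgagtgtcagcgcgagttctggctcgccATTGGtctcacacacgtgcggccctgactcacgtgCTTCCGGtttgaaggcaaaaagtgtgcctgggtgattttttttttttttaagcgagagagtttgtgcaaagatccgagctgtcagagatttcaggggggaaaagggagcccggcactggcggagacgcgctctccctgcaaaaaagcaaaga

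The motifs were searched on both strands, no match overlapped another, and a match is only a match of letters. The CCAAT box (CCAAT) was found 2 times each before Zic1, Lmx1b and En1 and 1 time before Foxc1, against 33.8% of 32851 promoter windows of the same length that hold it. The ETS core (CCGGAAG), of the factor class through which FGF signals often act, was found before En1 at 152 bases from the start, and 6.91% of all windows hold it. The other motifs had no match in these 6 windows: the TATA box (TATAAA, 12.4% of all windows), the homeodomain core (TAATTA, 4.84%), the forkhead core (TGTTTAC, 3.17%), the TCF/LEF core (CTTTGA, 13.8%) and the GLI core (GACCACCC, 0.703%). The windows also differed in composition. The Zic1 window held 27 CpG dinucleotides, the Foxc1 window 29, the Lmx1b and En1 windows 19 each and the Zic5 window 11, against a median of 6 over all windows, while the Zic4 window held 4. The Zic1 window lies inside the gene model of Zic4, and the RefSeq start used for Zic4 lies inside its own GENCODE model.

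Between libraries of 1 group, log2(FPKM + 1) correlated at r of 0.983 to 0.992 in the vault groups and 0.964 to 0.979 in the control base. Control base pool 2 stood apart: its 15 cartilage markers summed to 10827 FPKM against 1225 and 1694 FPKM in the other base pools, and it held the highest base level of all 4 Zic genes and of Foxc1. The other base pools fit their label less well by this measure, since both summed below every control vault pool (2124 to 3089 FPKM), and Col2a1, the main collagen of cartilage, was at 163 and 268 FPKM in them against 2292 FPKM in base pool 2. The log2 differences of base and control vault for the Zic genes and Foxc1 are given with and without that library. Most counts of called member and list genes against the base are given with it only. In bulk tissue, a lower level from fewer expressing cells cannot be told apart from less RNA per cell.

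All 4 listed Zic genes had their highest mean level in the MCAGF8 vault and their lowest in the control base, with the control vault between them. Zic1, which acts in the dorsal neural tube and in vault sutures, measured 138, 216 and 156 FPKM in the control vault pools, 382, 339 and 298 FPKM in the MCAGF8 vault and 27.5, 67.8 and 6.57 FPKM in the control base. No library of 1 group reached into the range of another. The means were 170.0 ± 41.0 FPKM in the control vault, 339.8 ± 42.2 in the MCAGF8 vault and 34.0 ± 31.1 in the control base (SD, n = 3 each), a 2.00-fold higher mean in the MCAGF8 vault than in the control vault and a 5.01-fold lower mean in the base. On the log2(FPKM + 1) scale Zic1 was 1.01 (SE 0.63) above the control vault in the MCAGF8 vault. Each SE here uses a spread shared by all 9 libraries, including the scattered base pools. A fit to the vault groups alone gave the same differences between them with smaller SE. It was 0.20 for Zic1, 0.21 for Zic2, 0.29 for Zic4, 0.18 for Zic5, 0.14 for Lmx1b, 0.22 for Foxc1 and 0.23 for En1. The genes were listed with their levels known, so neither SE is read as a test.

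Zic4, the partner of Zic1 on chromosome 9 and a gene of cerebellar development, had the largest difference between the vault groups among the 7 genes. It measured 31.5, 57.2 and 25.0 FPKM in the control vault and 126.5, 93.8 and 108 FPKM in the MCAGF8 vault, so the lowest MCAGF8 library lay above the highest control library. Its mean was 2.89-fold higher, at 109.5 ± 16.4 against 37.9 ± 17.1 FPKM (SD, n = 3 each), a log2 difference of 1.58 (SE 0.75). In the control base Zic4 measured 3.43, 26.1 and 1.18 FPKM, and the high value of pool 2 overlapped the control vault. The log2 difference of base and control vault was -2.52 (SE 0.75) with all libraries, -3.56 (SE 0.38) without base pool 2 and -1.74 (SE 0.68) without base pool 3, the lowest base pool.

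Zic2, which is needed for division of the forebrain, and its neighbour Zic5 were tightly grouped in the control vault. Zic2 measured 37.8, 39.8 and 39.5 FPKM there, a mean of 39.0 ± 1.06 FPKM (SD, n = 3), and Zic5 measured 11.7, 11.6 and 11.3 FPKM, a mean of 11.5 ± 0.229 FPKM (SD, n = 3). This tight grouping is of unscaled FPKM. The control vault libraries summed to 929728 to 1131826 FPKM, so it would be looser after rescaling to a common sum. On the unscaled values both genes were higher and much more scattered in the MCAGF8 vault. Zic2 reached 74.5, 93.0 and 52.4 FPKM (73.3 ± 20.3, SD, n = 3), 1.88-fold the control vault, with a log2 difference of 0.86 (SE 0.66). Zic5 reached 23.8, 15.6 and 19.8 FPKM (19.7 ± 4.10, SD, n = 3), 1.71-fold the control vault, with a log2 difference of 0.71 (SE 0.62). The pool that was highest differed between these neighbours, pool 2 for Zic2 and pool 1 for Zic5. In the control base Zic2 measured 10.1, 32.2 and 2.29 FPKM and Zic5 0.947, 10.4 and 0.541 FPKM, all below every control vault library. That holds for unscaled FPKM only. Base pool 2 had the lowest FPKM sum of the 9 libraries, at 793249, and control vault pool 3 had 1131826. After rescaling to a common sum, base pool 2 would no longer lie below that pool for either gene. Base pool 2 held most of the base signal of Zic2 and Zic5. Without it the log2 difference of base and control vault moved from -1.91 to -2.73 for Zic2, from -1.95 to -2.85 for Zic5 and from -2.77 to -3.51 for Zic1. Leaving out base pool 3, the lowest for all 4 Zic genes, moved it the other way, to -1.06 for Zic2, -1.41 for Zic5 and -1.92 for Zic1.

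**Figure D1:**
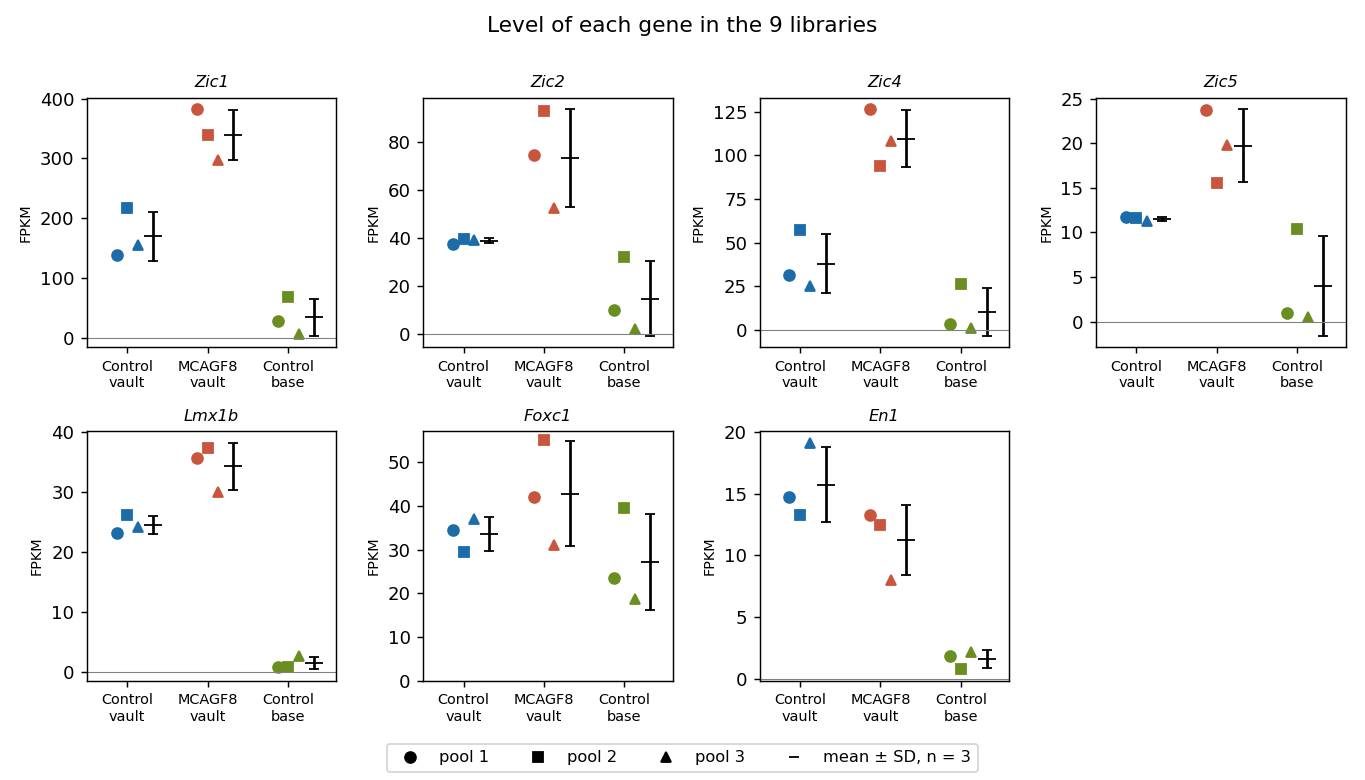
FPKM (linear axes) of the 7 genes in every library, with the mean ± SD of 3 pools beside each group and a marker shape for each pool number. The 4 Zic genes sit highest in the MCAGF8 vault, base pool 2 (green square) is the highest base library for each of them, Lmx1b and En1 are near 0 in all base pools, and the Foxc1 groups overlap.

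Lmx1b separated vault from base without that dependence on 1 pool. It measured 23.1, 26.1 and 24.1 FPKM in the control vault, 35.6, 37.4 and 29.9 FPKM in the MCAGF8 vault, and 0.783, 0.830 and 2.59 FPKM in the control base. The 3 groups did not overlap, and base pool 2, the highest base pool for the Zic genes, was not the highest here. Means were 24.4 ± 1.52, 34.3 ± 3.91 and 1.40 ± 1.03 FPKM (SD, n = 3 each), 1.40-fold higher in the MCAGF8 vault than in the control vault and 17.5-fold lower in the base than in the control vault. The log2 differences were 0.47 (SE 0.28) between the vault groups and -3.49 (SE 0.28) between base and control vault.

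Foxc1, the forkhead gene of meningeal and vault precursors, differed least. It measured 34.4, 29.4 and 37.1 FPKM in the control vault, 42.0, 55.1 and 31.2 FPKM in the MCAGF8 vault and 23.5, 39.6 and 18.6 FPKM in the control base, and every pair of groups overlapped. The means were 33.6 ± 3.90, 42.7 ± 12.0 and 27.2 ± 11.0 FPKM (SD, n = 3 each). Neighbouring means lay within 1 SD of each other by the larger SD of the pair, but not by the control vault SD. The log2 difference was 0.31 (SE 0.29) between the vault groups and -0.36 (SE 0.29) between base and control vault. Base pool 2 was again the highest base pool, and without it the difference of base and control vault was -0.65 (SE 0.25) and the groups no longer overlapped, whereas without base pool 3 it was -0.13 (SE 0.29).

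En1 was the 1 listed gene with a lower mean in the MCAGF8 vault than in the control vault. It measured 14.7, 13.3 and 19.1 FPKM in the control vault and 13.3, 12.5 and 7.98 FPKM in the MCAGF8 vault. The groups did not overlap, but only just, since the lowest control library was at 13.299 FPKM and the highest MCAGF8 library at 13.265 FPKM. These are unscaled FPKM, and that control library (pool 2) had an FPKM sum of 1020108. The MCAGF8 library (pool 1) had a smaller sum of 847560, so rescaling to a common sum would make the groups overlap. The means were 15.7 ± 3.03 and 11.2 ± 2.85 FPKM (SD, n = 3 each), a log2 difference of -0.46 (SE 0.29). With libraries rescaled to a sum of 1000000 it was -0.3 (SE 0.27). In the control base En1 measured 1.83, 0.776 and 2.21 FPKM, a mean of 1.61 ± 0.744 FPKM (SD, n = 3) that was 9.78-fold below the control vault. As for Lmx1b, base pool 2 was not the high one: it held the lowest En1 level of the 9 libraries.

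**Figure D2:**
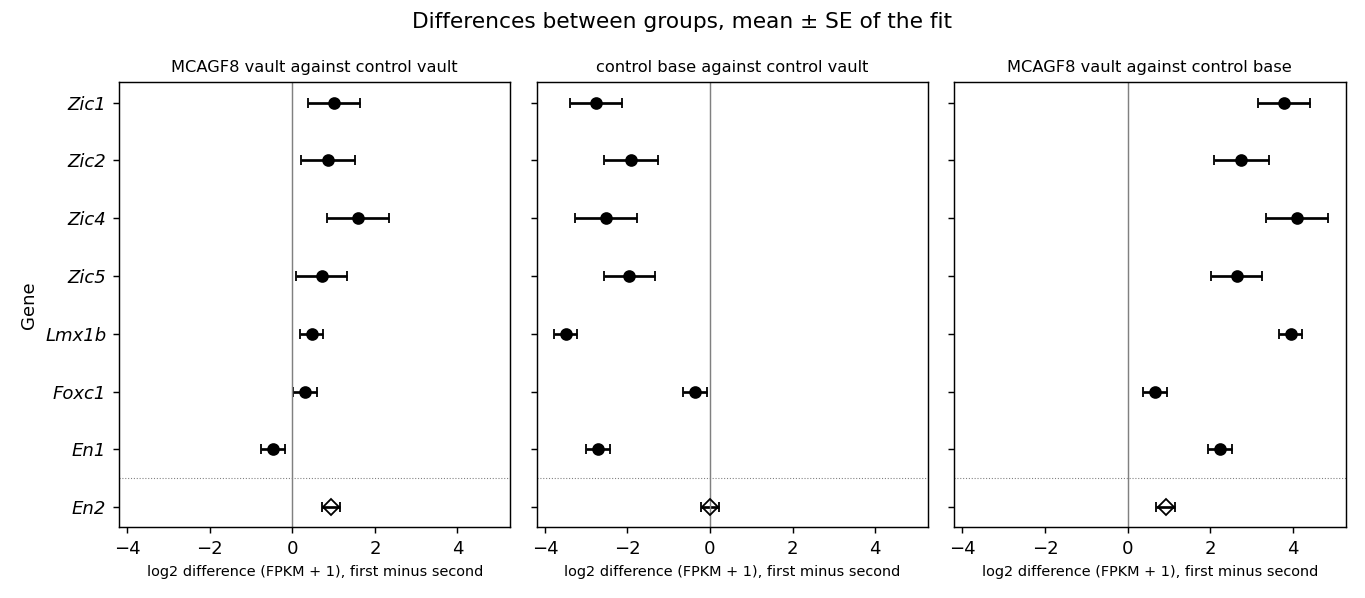
Differences in log2(FPKM + 1) for the 7 genes (filled circles) and for En2 (open diamonds), with bars for the standard error of the fit over 9 libraries, in each of the 3 comparisons. Between the vault groups 6 of the 7 genes lie right of 0, led by Zic4 at 1.58, and En1 lies left of it at -0.46, while all 7 lie left of 0 in base against control vault.

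The order of the levels changed between the groups. In the control vault Zic1 was highest, followed by Zic2, Zic4, Foxc1, Lmx1b, En1 and Zic5, where Zic2, Zic4 and Foxc1 overlapped as neighbours and the other neighbours did not. In the MCAGF8 vault Zic4 lay above Zic2, which it had overlapped in the control vault. The separation was only just free of overlap, with the lowest Zic4 library at 93.8 FPKM and the highest Zic2 library at 93.0 FPKM. The Zic4 level also carries the uncertainty from its overlap with the Zic1 gene model. En1 became the lowest gene of the MCAGF8 vault, below Zic5 and without overlap. There Zic2 overlapped Foxc1, and Foxc1 overlapped Lmx1b. In the control base every gene overlapped its neighbour in the order, which ran from Zic1 and Foxc1 at the top to En1 and Lmx1b at the bottom. The ratio of Zic1 to En1, both on the FPKM scale, was 8.14 to 16.3 in the control vault pools and 27.2 to 37.3 in the MCAGF8 vault pools, with no overlap, and it ranged from 2.97 to 87.4 in the base pools.

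Counted over the 7 genes, 5 had every MCAGF8 vault library above every control vault library and 1 had every such library below. Over all 18714 genes tested, 9.9% were higher and 9.35% lower without overlap. Overlap was judged on unscaled FPKM, and the gene below, En1, would overlap after rescaling to a common sum. A gene was called where limma, fitted to all 9 libraries, gave p below 0.05 before and below 0.1 after Benjamini-Hochberg adjustment. By limma, 0 of the 7 were called between the vault groups (0 also at an unadjusted p under 0.05), against 0.604% of all genes, and a linear model without moderation called 0 of all genes there. These counts of the 7 rest on the spread shared by all 9 libraries, including the scattered base pools. The fit to the vault groups alone had the smaller SE given above, and the 7 genes were not counted in it. In base against control vault 3 were called, all lower (Zic1, Lmx1b and En1), against 3.06% of all genes in either direction and 1.21% lower, and 5 were lower without overlap, against 6.69%. Among those 5, Zic2 and Zic5 would overlap after rescaling to a common sum. In the MCAGF8 vault against the control base 6 were called, all higher and all but Foxc1, against 8.39% of all genes in either direction and 2.98% higher, and the same 6 were higher without overlap, against 8.91%. Without base pool 2, all 7 lay below the control vault and all 7 below the MCAGF8 vault with no overlap, against 12.1% and 14.8% of all genes. The genes were listed with these levels known, so nothing is read from these counts. The median log2 difference over the 7 genes was 0.71, -2.52 and 2.76 in the 3 comparisons in that order, beside -0.01, 0.07 and -0.07 over all genes tested. Each group enters 2 of the 3 comparisons, so the comparisons are not independent.

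Summed over Zic1, Zic2, Zic4 and Zic5, the Zic genes measured 219 to 325 FPKM in the control vault pools, 478 to 607 FPKM in the MCAGF8 vault pools and 10.6 to 137 FPKM in the base pools. Zic1 made up 63.0% to 67.3% of it in the control vault and 62.3% to 63.0% in the MCAGF8 vault, ranges that did not overlap but nearly touched. The Zic4 share, at 10.8% to 17.6% in the control vault and 17.3% to 22.6% in the MCAGF8 vault, overlapped, and so did the Zic2 share, at 12.2% to 17.2% and 10.9% to 17.2%, and the Zic5 share, at 3.57% to 5.34% and 2.88% to 4.14%. The ratio of Zic1 to Zic4 on the FPKM scale was 3.78 to 6.23 in the control vault and 2.75 to 3.61 in the MCAGF8 vault, with no overlap, subject to the uncertainty from their overlapping gene models. In the base, pool 2 alone held 137 FPKM against 42.0 and 10.6 FPKM in the other pools.

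**Figure D3:**
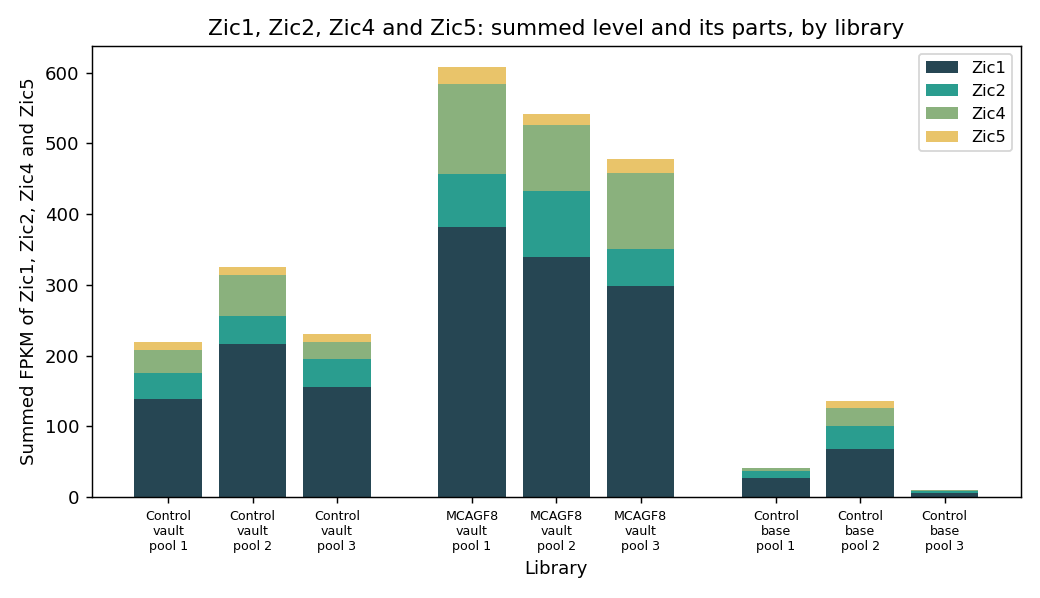
Stacked bars of the FPKM (linear axis from 0) of Zic1, Zic2, Zic4 and Zic5 in each of the 9 libraries. The MCAGF8 vault libraries sum to 478 to 607 FPKM, above the control vault at 219 to 325 FPKM, Zic1 is the largest part in every library, and base pool 2 is the tallest base bar at 137 FPKM.

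Relatives of the listed genes were called in both comparisons with the base. Of the 7 relatives tested, 0 were called between the vault groups (limma; 1 at an unadjusted p under 0.05), 2 in base against control vault (28.6%, with 3.06% of all genes) and 3 in MCAGF8 vault against base (42.9%, with 8.39% of all genes). En2, the engrailed paralog of En1, was at 0.210, 0.173 and 0.202 FPKM in the control vault and 1.37, 1.74 and 0.803 FPKM in the MCAGF8 vault, higher in all 3 pools while En1 was lower. That log2 difference of 0.93 (SE 0.22) did not pass the test (limma, adjusted p = 0.177), and with 0.204 ± 0.102 FPKM in the base (SD, n = 3), En2 was called higher in the MCAGF8 vault than in the base by 0.92 (SE 0.22; limma, adjusted p = 0.0419, and 0.018 to 0.122 under the alternatives, 2 of which lost the call). Foxf2, a forkhead gene 180.8 kb from Foxc1 that is known in palate and cranial mesenchyme, ran the other way from the vault genes. It measured 48.0, 20.2 and 46.2 FPKM in the base pools and 1.44 to 2.35 FPKM in the control vault, higher in the base by 3.61 (SE 0.40) on the log2 scale (limma, adjusted p = 0.00431), and it was lower in the MCAGF8 vault than in the base (log2 difference -3.72, SE 0.40; limma, adjusted p = 0.00251). Foxq1, 250.5 kb from Foxc1, was also higher in the base, at 4.02 ± 1.25 FPKM, with the control vault at 0.293 ± 0.0372 FPKM (SD, n = 3 each; log2 difference 1.93, SE 0.26; limma, adjusted p = 0.0124). Lmx1a, the paralog of Lmx1b, was at 3.53 ± 0.534, 2.15 ± 0.589 and 3.98 ± 4.74 FPKM in control vault, MCAGF8 vault and base (SD, n = 3 each) and was called in no comparison, as were the meningeal gene Foxd1, Foxd2 and Foxs1.

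The cofactors of these proteins were called mainly in MCAGF8 vault against base, the comparison that also called most genes in all. Of 19 partner genes, among them the GLI relatives of the Zic proteins, the LDB adaptors of LIM factors and the Groucho corepressors of engrailed and forkhead proteins, 0 were called between the vault groups (limma; 8 at an unadjusted p under 0.05), with 16 of 19 higher and a median log2 difference of 0.40. In base against control vault 1 was called (5.3%, with 3.06% of all genes). Between MCAGF8 vault and base 5 were called (26.3%, with 8.39% of all genes). Ldb2, a LIM adaptor that LMX1B can bind, was higher in the MCAGF8 vault at 72.1, 90.4 and 65.4 FPKM against 28.7, 23.1 and 38.4 FPKM in the base (log2 difference 1.33, SE 0.21; limma, adjusted p = 0.0108). Gli2 and the homeobox cofactor Pbx3 were also higher, by 0.87 (SE 0.21) and 0.85 (SE 0.19), with adjusted p of 0.043 and 0.0317 by limma, and each lost its call under some alternatives, with adjusted p up to 0.143 and 0.114. Gli1, a readout of Hedgehog signaling, was lower in the MCAGF8 vault than in the base (log2 difference -1.40, SE 0.26; limma, adjusted p = 0.0163, lost in 1 of 20 alternatives). Tbx1, which encodes a T-box factor of pharyngeal and cranial mesoderm, was called in both comparisons with the base, at 19.3 ± 2.83 FPKM there against 1.27 ± 0.580 in the control vault and 2.57 ± 0.527 in the MCAGF8 vault (SD, n = 3 each; limma, adjusted p = 0.00107 and 0.00206).

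Of 28 signaling genes and targets tested around the listed factors, 0 were called between the vault groups (limma; 8 at an unadjusted p under 0.05), 5 in base against control vault and 7 in MCAGF8 vault against base. Msx2, the vault homeobox gene from which the Cre driver takes its name, followed Lmx1b: it measured 73.9, 77.1 and 89.8 FPKM in the control vault, 110.3, 152 and 99.2 FPKM in the MCAGF8 vault and 10.7, 11.8 and 13.8 FPKM in the base. The base was lower than the control vault (log2 difference -2.63, SE 0.20; limma, adjusted p = 0.000825). Of the isthmus genes that act with En1 and Lmx1b in the midbrain circuit, Wnt1 was at no more than 0.0529 FPKM and Pax5 at no more than 0.0443 FPKM in any library. Pax2 was at no more than 0.0398 FPKM in the vault libraries and at 0.0597, 3.09 and 1.57 FPKM in the base pools. Dusp6, a feedback target of FGF signaling, was at 26.9 to 32.6 FPKM in the control vault and 46.5 to 59.5 FPKM in the MCAGF8 vault, a log2 difference of 0.77 (SE 0.19) that did not pass the test (limma, adjusted p = 0.205). The Hedgehog receptor gene Ptch1 was lower in the MCAGF8 vault, at 14.0 ± 3.26 FPKM, with the control vault at 27.4 ± 3.65 FPKM (SD, n = 3 each), which did not pass either (log2 difference -0.93, SE 0.28; limma, adjusted p = 0.355).

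Of 22 other homeobox, bHLH and related factors of the vault, 1 was called between the vault groups. This was Tfap2a, an ectoderm and neural crest gene, higher in the MCAGF8 vault at 6.30 ± 1.29 against 0.974 ± 0.447 FPKM (SD, n = 3 each; log2 difference 1.90, SE 0.33; limma, adjusted p = 0.0723, up to 0.334 under the alternatives, 10 of 19 of which lost the call). In base against control vault 5 of the 22 were called, 4 lower and 1 higher. Alx4 and Prrx1, homeobox genes of vault mesenchyme, were among those that fell. The log2 difference was -2.21 for Alx4 (SE 0.42; limma, adjusted p = 0.0418, lost in 4 of 20 alternatives) and -1.22 for Prrx1 (SE 0.18; limma, adjusted p = 0.0157, held in all 20). The 1 that rose was Meis1, a homeobox cofactor gene, at 29.4 ± 5.32 FPKM in the base with the control vault at 12.0 ± 5.54 FPKM (SD, n = 3 each; log2 difference 1.29, SE 0.31; limma, adjusted p = 0.0807, lost in 13 of 20 alternatives). Between MCAGF8 vault and base 7 of the 22 were called, all higher in the vault.

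Markers of other cell types also differed between the groups, in patterns that varied by list. The 24 meningeal fibroblast markers summed to 3323 to 3904 FPKM in the control vault, 3193 to 5092 FPKM in the MCAGF8 vault and 2118 to 3344 FPKM in the base. The vault groups overlapped, 0 of 24 were called between them (limma; 4 at an unadjusted p under 0.05) and the median log2 difference was 0.03. In base against control vault 4 of the 24 were called, all lower, with a median log2 difference of -0.53. They included Igfbp2 and Bgn, each of which lost its call in 5 of 20 alternatives. Leaving out each library gave 1 to 9 called in that comparison. The 17 skin epidermis markers summed to 41.3 to 129 FPKM in the control vault and 475 to 1142 FPKM in the MCAGF8 vault, with no overlap, and 3 were called higher, among them the basal keratin gene Krt5, which lost its call in 11 of 20 alternatives. In the base they summed to 164 to 945 FPKM, also above every control vault pool. There 3 were called higher than in the control vault (Krt17, Cldn4 and Epcam). Epcam lost that call in 8 of 20 alternatives and Krt17 in 4, and Cldn4 held it in all 20. MCAGF8 vault pool 3 had the highest epidermis sum and the lowest levels of Zic1, Zic2, Lmx1b, Foxc1 and En1 in its group, whereas Zic4 and Zic5 were lowest in pool 2. The 13 osteoblast markers were all lower in the MCAGF8 vault, 7 of them called, with sums of 4806 to 5676 against 6799 to 10626 FPKM, and the 13 skeletal muscle markers were all lower, 8 of them called, at 55.9 to 233 against 989 to 6180 FPKM. These counts depended on single libraries: leaving out each in turn gave 0 to 9 called epidermis markers, 2 to 7 osteoblast markers and 0 to 12 muscle markers, with the highest of each without base pool 2 (for osteoblast also without control vault pool 2). Epidermis counts were 0 without control vault pools 1 or 3, MCAGF8 vault pools 1, 2 or 3 or base pool 1, osteoblast counts 2 or 3 without control vault pools 1 or 3 or MCAGF8 vault pools 1, 2 or 3, and muscle counts 0 or 1 without control vault pools 1, 2 or 3, MCAGF8 vault pools 1 or 2 or base pool 3, and 4 without base pool 1. In the base the osteoblast markers summed to 1553 to 3365 FPKM and all 13 were lower than in the control vault, 3 of them called, while the muscle markers summed to 1883 to 11791 FPKM and 0 were called (limma; 0 also at an unadjusted p under 0.05). The 15 cartilage markers summed to 2908 to 5345 FPKM in the MCAGF8 vault, overlapping the control vault, and 0 were called (limma; 1 at an unadjusted p under 0.05). The 14 dermis markers summed to 4754 to 5643 FPKM in the control vault, 5749 to 6157 FPKM in the MCAGF8 vault and 2003 to 3037 FPKM in the base, and in base against control vault 3 were called lower and 1 higher. Control vault pool 2, the highest control vault pool for Zic1 and Zic4, had the highest muscle sum and the lowest osteoblast sum of its group. The part of these shifts in the levels of the listed genes was not tested.

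The Zic genes, Lmx1b and En1 are also expressed in brain. The brain neuron and progenitor markers summed to 64.9 to 244 FPKM in the control vault and 77.8 to 106 FPKM in the MCAGF8 vault. In the base they summed to 471 to 1482 FPKM. Between the vault groups, 14 of the 16 tested were lower in the MCAGF8 vault, 5 of them without overlap, with a median log2 difference of -0.89. Dcx, a gene of migrating neurons, was the 1 called, at 0.456 ± 0.107 FPKM in the MCAGF8 vault and 6.99 ± 3.50 FPKM in the control vault (SD, n = 3 each; log2 difference -2.34, SE 0.42; limma, adjusted p = 0.0763, lost in 11 of 20 alternatives). Neurod1, a neuronal gene, was at 5.14, 0.0223 and 2.06 FPKM in the control vault and at no more than 0.0809 FPKM in the MCAGF8 vault. In base pools 1 to 3 the brain marker sums were 471, 550 and 1482 FPKM, and the Zic genes were highest in pool 2. The sum is weighted toward its highest genes, among them Stmn2, Nefl and Nefm, and does not track each brain region. The part of brain RNA in the base levels of the Zic genes was not tested.

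**Figure D4:**
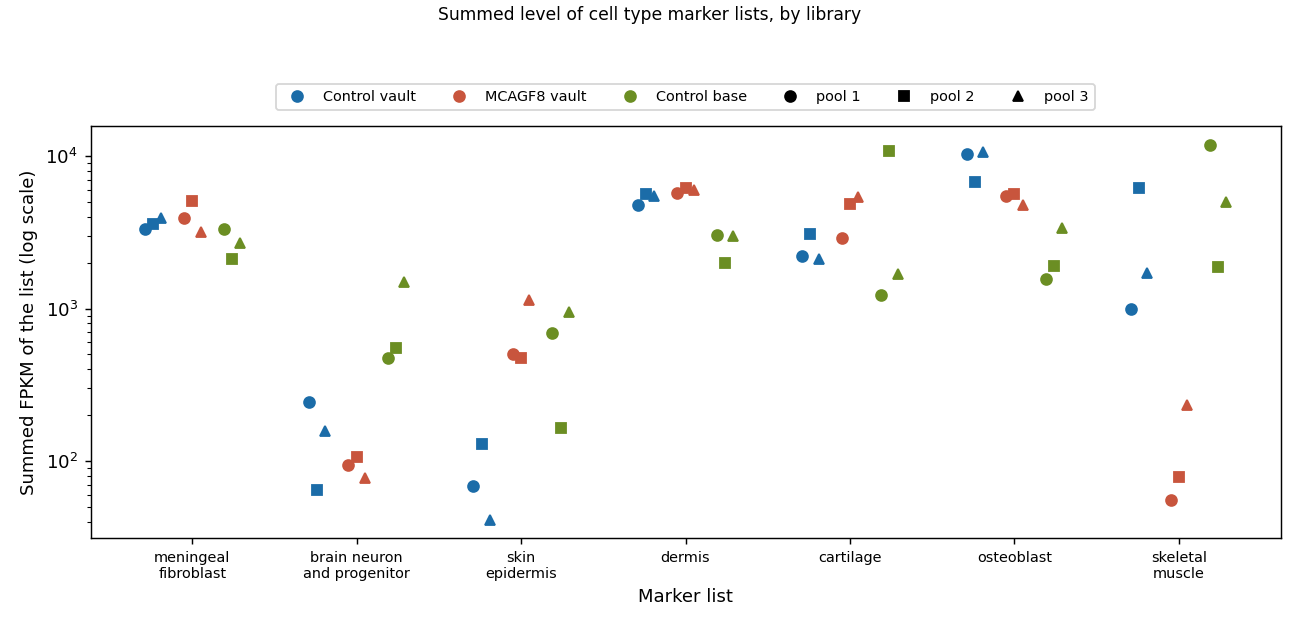
Summed FPKM (log scale) of 7 marker lists in each of the 9 libraries, colored by group, with a marker shape for each pool number. Meningeal sums of the vault groups overlap, epidermis sums are higher and muscle sums lower in the MCAGF8 vault than in the control vault, and base pool 2 stands out in cartilage at 10827 FPKM.

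Across the 9 libraries the listed genes fell into related but not identical patterns. These correlations of log2(FPKM + 1) are descriptions over libraries that share 3 groups, so they mostly follow the group levels. Zic1, Zic2, Zic4 and Zic5 correlated with each other at r of 0.948 to 0.977, and En1 with Lmx1b at r = 0.945. Over the 6 vault libraries alone, Zic1 and Zic4 still correlated at r = 0.965 and Lmx1b and Zic2 at r = 0.977, while En1 correlated with each Zic gene at r of -0.743 to -0.324 and with Lmx1b at r = -0.431. Among genes with a mean of at least 5 FPKM, those most like each listed gene over the 9 libraries often were other Zic genes. Zic1 was closest to Zic2 (r = 0.977), Zic4 (r = 0.975) and Snai2 (r = 0.968), Zic2 to Zic1, Erg (r = 0.96) and Zic4 (r = 0.957), and Zic4 to Parp12 (r = 0.98) and Erg (r = 0.976). Zic5 was closest to Man1a (r = 0.98), Col12a1 (r = 0.976) and Zic4 (r = 0.973). Lmx1b was closest to C130021I20Rik (r = 0.995), Lipa (r = 0.993) and Msx2 (r = 0.989), and C130021I20Rik had the same steep fall in the base, at 84.7 ± 16.4 FPKM in the control vault, 96.6 ± 10.05 in the MCAGF8 vault and 3.23 ± 1.81 in the base (SD, n = 3 each). The highest correlations of Foxc1 were lower, with Gm13042 (r = 0.937), Slc38a3 (r = 0.915) and Zic2 (r = 0.899). En1 was closest to Gxylt2 (r = 0.984), Serping1 (r = 0.981) and Castor1 (r = 0.98), all of which were lowest in the base.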

How the data were processed

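RNA from 9 tissue samples per group was combined by the authors into 3 pools of 3, giving 9 stranded mRNA libraries. Reads were single-end, and the authors aligned them with gSNAP and obtained FPKM from Cufflinks, and the deposited table holds FPKM per Ensembl gene. Genome build, annotation and program versions: not given in the sources used here. Because FPKM keep no read counts, depth is unknown, and the SD of 3 pools describes the spread between pools. p-values reflect the spread between pools.

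From the deposited FPKM, 63 repeated identifier rows were summed and 9 genes with the placeholder 999999999 left out. Symbols and positions came from GENCODE on GRCm38 and matched 42375 identifiers. FPKM were not rescaled. Library sums ran from 793249 FPKM (base pool 2) to 1315982 FPKM (base pool 1). Overlap between groups was judged on unscaled values, and counts of it after rescaling were not made. Values were transformed to log2(FPKM + 1), and genes averaging 0.5 FPKM or more (18714) entered a limma 3.58.1 fit (lmFit, contrasts.fit, eBayes with a trend) in R 4.3.3, with 1 mean per group over 9 libraries, two-sided. The fit was tested on simulated data. A log2 difference on this scale understates changes of low genes, and fold values are ratios of mean FPKM. Called genes had p below 0.05 before and below 0.1 after Benjamini-Hochberg adjustment.

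The members and lists were chosen with earlier results of these data known. From the lists, all family relatives and, per comparison, up to 5 called genes by size, or the 3 largest without overlap, were eligible to be named, with the 3 genes most correlated with each member. Fgf8, Wnt1, Pax2, Pax5, Neurod1 and Col2a1 were named after their values were seen. Some relatives, markers and correlated genes are not reported here. Alternatives were other pseudocounts, filters, scalings, fits, thresholds, a replicate block and leaving out each library. Python 3.11.15, pandas 2.3.3, numpy 2.4.6 and matplotlib 3.10.9 were used.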

Additional observations from a re-analysis of the deposited data

How the results depend on the processing

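Between the vault groups 113 genes were called. The count was 191 and 192 with pseudocounts of 0.1 and 0.01, 66 with no filter, 71 with a floor of 5 on the mean FPKM, 264 in a fit to both groups alone, 35 at an adjusted p under 0.05, 1186 at the unadjusted p alone and 0 with a linear model without moderation, where limma gave 1186 at an unadjusted p under 0.05. Leaving out each library gave 11 to 273. In base against control vault, 573 genes were called, 291 with a floor of 5, 139 in a fit to both groups alone, 257 without moderation, 255 at an adjusted p under 0.05 and 2396 at the unadjusted p alone, and 130 to 1335 leaving out each library. In MCAGF8 vault against base, 1571 were called, 834 with a floor of 5, 904 in a fit to both groups alone, 869 without moderation, 941 at an adjusted p under 0.05 and 3675 at the unadjusted p alone, and 587 to 4561 leaving out each library. Each highest value came without control base pool 2. The other libraries whose loss moved a count by over 1.5 times were, between the vault groups, control vault pools 1 and 3 (11 each) and MCAGF8 vault pools 1, 2 and 3 (13, 15 and 38). In base against control vault they were control vault pools 1, 2 and 3 (193, 219 and 130), MCAGF8 vault pools 1 and 3 (293 and 339) and base pools 1 and 3 (918 and 351), and in MCAGF8 vault against base they were MCAGF8 vault pools 1, 2 and 3 (587, 768 and 842). The cause was not tested.

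Same-numbered pools did not deviate together (r of -0.549 to 0.37), so the numbers were not read as pairs. Only control vault and control base could share embryos, and there r was -0.409, 0.000295 and 0.24 for pools 1 to 3. Differently numbered pools of those groups ran from -0.482 to 0.462. With 3 pools a group this check cannot settle which pools share embryos. With the replicate number as a block, 19, 234 and 918 genes were called in the 3 comparisons in the same order.

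Rescaling to a sum of 1000000 moved the median log2 difference of all genes from -0.01 to 0.13 between the vault groups and from -0.07 to 0.11 in MCAGF8 vault against base, where it called 768 higher and 817 lower against 558 and 1013. Quantile normalization called 1153 higher and 810 lower there, and 236 higher and 390 lower in base against control vault, against 347 and 226.

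Some alternatives leave a difference unchanged by design: the fit to both groups alone, the replicate block, and leaving out a library of the group not compared. With those counted, all 315 log2 differences of the 7 genes under the alternatives kept their direction. For 8 of them, Lmx1b and En1 against the base with smaller pseudocounts, the size moved by more than 1 residual SD of the fit (0.35 for Lmx1b and 0.36 for En1): Lmx1b was -4.24 and -4.35 and En1 -3.31 and -3.40 in base against control vault, and 4.72 and 4.83 and 2.81 and 2.90 in MCAGF8 vault against base. By the smaller measure of 1 SE, 29 of the 315 moved, 17 of them on leaving out a library, all against the base. In base against control vault, leaving out each library gave -3.51 to -1.92 for Zic1, -2.73 to -1.06 for Zic2, -3.56 to -1.74 for Zic4 and -2.85 to -1.41 for Zic5. Between the vault groups Zic4 ranged from 1.33 to 1.92 and En1 from -0.59 to -0.25. Of 2373 alternative values of the other named genes, 390 crossed the threshold. The sign changed in 26 of them, in 0 of genes called with all libraries and in 11 differences that were not called, among them Foxd1, Foxd2, Foxs1 and Foxf2 between the vault groups and Lmx1a in base against control vault. Among these values too, the fits named above and a change of filter, threshold or moderation could not change a sign. Read depth is not known, and 3 pools a group limit what can be called.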
